A study of Mus musculus with 4 samples.

Results

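The fibroblast growth factor (FGF), platelet-derived growth factor (PDGF) and vascular endothelial growth factor (VEGF) families were followed in the mouse germ cell lines GC-2 and GC-1. Members were all probes whose gene name in the scanner files is an Fgf, Fgfr1 to Fgfr4, Fgfbp, Pdgf, Pdgfr or Vegf gene by pattern, or Fgfrl1, Figf, Pgf, Flt1, Kdr, Flt4, Nrp1 or Nrp2. This rule gave 97 probes of 45 genes, of 24813 named genes on the array. They were 18 secreted FGFs, 4 intracellular FGF homologous factors, 2 FGF binding proteins, 5 FGF receptors, 4 PDGF chains, 2 PDGF receptors, 5 VEGF family ligands and 5 VEGF receptors or neuropilins. The files use the old symbol Figf for Vegfd, and 1 further Nrp2 probe, listed under the old name Npn2, was outside the rule.

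GC-2 was made from mouse spermatocytes by introducing a temperature-sensitive p53 together with SV40 large T antigen, and GC-1 from type B spermatogonia by large T antigen, so that both are transformed lines and each is a single line. Total RNA of untreated cells, grown in DMEM with serum at 37 °C and taken near confluence, was read on 1-colour arrays, 2 for GC-2 and 2 for GC-1. The labels do not say that the replicates came from separate cultures, and the p-values therefore cover no more than the scatter of these 4 arrays, possibly technical. All 4 arrays were on 1 slide, with each line in a row of its own, so that position and line cannot be told apart.

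The 3 families share a plan: a secreted, usually dimeric or heparan sulphate-bound ligand brings together receptor tyrosine kinases, which then activate the Ras, PI3 kinase and phospholipase C pathways. FGFs act on FGFR1 to FGFR4 with heparan sulphate as cofactor, PDGF chains on PDGFRα and PDGFRβ, and VEGFs on FLT1, KDR and FLT4 with neuropilins as co-receptors. In the testis, FGF2 from Sertoli cells and other somatic cells helps to maintain spermatogonial stem cells, PDGFs act on Leydig and peritubular cells, and VEGF-A forms have been tied to vessel growth and to the balance of germ cell renewal.

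What each spot reads is a 60-base probe, and the coding-region probes below are shown because probes of the same gene often differed in their change. Why they differed was not tested. The sequences are those of the scanner files, 5′ to 3′ along the transcript, with positions on mm9.
Fgf10 probe, chr13:119577931-119577990, + strand: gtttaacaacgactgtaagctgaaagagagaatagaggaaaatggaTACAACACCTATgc
Fgf2 probe, chr3:37303539-37303598, + strand: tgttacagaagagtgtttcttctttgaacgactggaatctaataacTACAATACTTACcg
Vegfc probe, chr8:55244696-55244755, + strand: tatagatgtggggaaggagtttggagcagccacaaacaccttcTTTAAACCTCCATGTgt
Vegfa probe in the basic stretch, chr17:46159226-46159282, - strand: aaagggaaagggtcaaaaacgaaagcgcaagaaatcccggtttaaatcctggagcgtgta
Figf probe, chrX:160832499-160833909, + strand, across an exon junction: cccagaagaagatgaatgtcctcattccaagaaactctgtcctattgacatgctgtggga
Fgfr1 kinase probe, chr8:26682852-26682911, + strand: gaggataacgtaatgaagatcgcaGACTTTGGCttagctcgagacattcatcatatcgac
Nrp1 coding probe, chr8:130992273-130992332, + strand: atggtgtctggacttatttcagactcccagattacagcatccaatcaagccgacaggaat
Nrp2 coding probe, chr1:62818403-62829910, + strand, across an exon junction: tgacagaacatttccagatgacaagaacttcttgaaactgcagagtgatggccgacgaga

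Capitals mark codons of short patterns. In the Fgf10 and Fgf2 probes they are the codons for tyrosine, asparagine, threonine and tyrosine in the FGF core, a string found on either strand in 16 of 56605 probes of the array (0.0283%) and in 3 member probes. In the Vegfc probe they are codons for phenylalanine, lysine, proline, any residue and cysteine, part of the cystine knot domain. That string was in 23 probes (0.0406%), 2 of them members. In the Fgfr1 kinase probe the capitals mark the aspartate, phenylalanine and glycine codons that open the activation loop of kinases, a string of 9 bases in 374 probes (0.661%), 2 of them members. Both strands were searched, and a match describes the letters of a probe alone. The lysine and arginine codons of the Vegfa probe in the basic stretch belong to the exon that gives the longer VEGF-A isoforms their affinity for heparin, as is known from the gene.

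Values below are log2 processed signals minus the 75th percentile of the array, so that 0 stands for a probe at that percentile. As a signal, that percentile came to 415.9 and 199.9 for GC-2 and to 665.8 and 692.8 for GC-1. From 57.5% to 62.0% of probes were well above background on the GC-2 arrays and from 63.5% to 64.9% on the GC-1 arrays. Replicates differed with a median SD of 0.17 log2 in GC-2 and 0.20 log2 in GC-1, and the number of arrays limits the precision. The E1A spike-in control probes read 2.07 log2 higher in GC-2 on this scale (SD 0.45 over 8 probes), so that scaling on them would subtract 2.07 from every change given here.

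A gene is called measured in a line where both arrays had the same probe well above background. In GC-2 that held for 32 of the 45 genes (71.1%, against 62.5% of all named genes), and in GC-1 for 36 (80%, against 68.5%). All 32 genes measured in GC-2 were also measured in GC-1. The genes measured in neither line were the ligands Fgf4, Fgf9, Fgf15, Fgf16, Fgf17, Fgf20, Fgf22 and Pdgfd and the homologous factor Fgf14. Of these, Pdgfd had a probe well above background on 1 GC-2 array, at -3.77, with the other GC-2 array at -4.85 and the GC-1 arrays at -8.47 and -8.03. The 4 genes measured in GC-1 alone by this count were Fgf5, Fgf10, Fgfbp1 and Flt4.

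Of the 36 genes tested, 10 were higher and 12 lower in GC-2 with limma at an adjusted p under 0.05, and 14 were not called. The called share was 61.1%, beside 44.1% of the 17437 genes tested on the array. Higher calls were 10 of 36, beside 18.3% of all genes, and lower calls 12 of 36, beside 25.7%. These shares of all genes also stand beside the counts by role and list below. Of the lower genes, Fgf5, Fgf10, Fgfbp1 and Flt4 were tested through the GC-1 arrays alone, which favours a lower call. With only probes well above background on all 4 arrays, 10 of 31 members were higher and 8 lower, beside 3079 and 3846 of all genes. The number of all genes tested with that filter is not given here, so the latter 2 counts are not shares. Among probes, 17 of 69 members were higher and 23 lower, beside 45.7% called in either direction, 24.1% higher and 21.6% lower over 36692 probes. The median log2 change of the members was -0.11, against -0.13 over all genes tested. Each of the 22 called genes differed by at least 2-fold. Scaled on the E1A probes, 3 members were higher and 26 lower, beside 3.69% and 86.9% of all genes, and the 3 that stayed higher were Fgf7, Pdgfrb and Pgf. With normexp background correction, which adds an offset of 50 to the signals, the calls held but many changes were smaller, among them Fgf5 (-7.25), Fgfbp1 (-2.65), Fgf10 (-1.22), Flt1 (-5.78), Flt4 (-1.52) and Pgf (2.48).

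**Figure D1:**
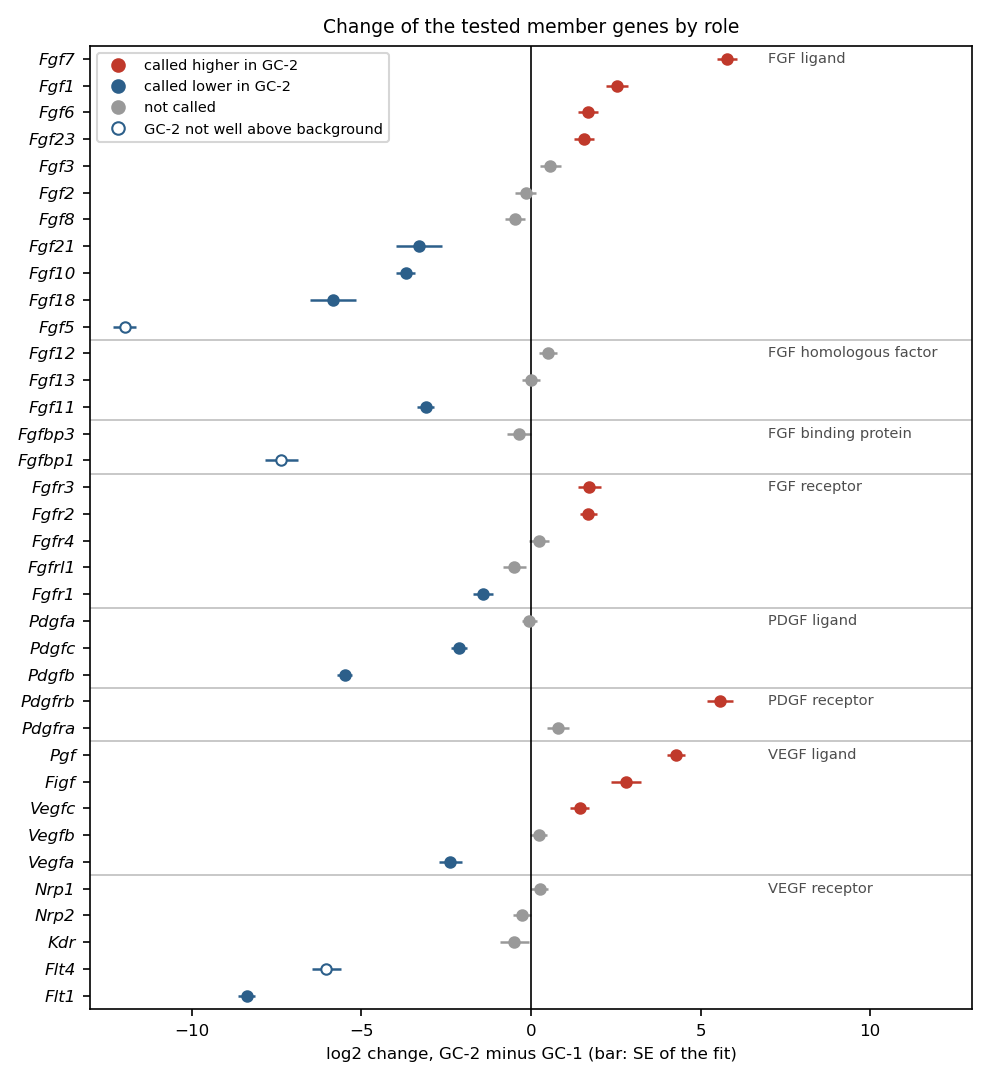
Log2 change (GC-2 minus GC-1) of the brightest tested probe of each of the 36 tested genes, grouped by role, with bars for the SE of the limma fit. The 10 genes called higher (red) reach from 1.43 for Vegfc to 5.77 for Fgf7, and the 12 called lower (blue) from -1.41 for Fgfr1 to -11.98 for Fgf5. Open points are genes above background on no GC-2 array. On the E1A scale every point would lie 2.07 further left. Of the genes called higher, that puts Fgf6, Fgf23, Fgfr2, Fgfr3 and Vegfc below 0, and some uncalled genes cross 0 too.

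Among the secreted FGFs, 4 of 11 tested genes were higher and 4 lower in GC-2. Fgf7 and Fgf10, of the same subfamily, went in opposite directions. Fgf7, also called keratinocyte growth factor and a ligand of the epithelial FGFR2 splice form, lay at 3.74 and 3.28 in GC-2 and at -2.03 and -2.49 in GC-1 (probe at chr2:125916134-125916193). That is a log2 change of 5.77 ± 0.30 (SE, n = 2 arrays each), 54.4-fold higher in GC-2, with a limma adjusted p of 0.00023. Fgf10, which binds the same receptor form, lay at -4.55 and -5.09 in GC-2, where 1 of 2 arrays was well above background, and at -1.28 and -0.95 in GC-1. Its change was -3.70 ± 0.29 (adjusted p = 0.000695). The coding probe printed above was well above background on both GC-1 arrays, at -5.63 and -5.31, and on neither GC-2 array, too near the detection limit for a bound. It was also called lower in GC-2 (-1.89 ± 0.35, adjusted p = 0.00899). In both genes the arrays of the lines did not overlap at the brightest probe. Fgf3, the third measured member of that subfamily, changed by 0.57 ± 0.32 and was not called (adjusted p = 0.2), with a change of -1.50 on the E1A scale.

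Fgf5, known as an inhibitor of hair growth and a marker of the epiblast, gave the largest change of all members. It was bright on the GC-1 arrays, at 5.27 and 4.46, and well above background on neither GC-2 array, at -7.23 and -7.00 (chr5:98705980-98706039). Set against the detection limit of the GC-2 arrays, Fgf5 was at least 1030-fold lower in GC-2 (adjusted p = 0.000118 for the fitted change of -11.98 ± 0.34). In processed signal, the GC-2 arrays read 2.77 and 1.56 and the GC-1 arrays 25700 and 15200. Fgf18, a ligand of cartilage and lung development, lay at -3.68 and -3.22 in GC-2 and at 1.34 and 3.41 in GC-1, a change of -5.83 ± 0.68 (adjusted p = 0.00211). Its GC-1 arrays lay far apart, yet both were above both GC-2 arrays. The calls of Fgf5 and Fgf18 held in each setting that could be run for them.

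The hormone-like FGFs, which act at a distance through klotho co-receptors, split as well. Fgf21, a metabolic hormone of liver, had -1.39 and -3.22 in GC-2 and 1.51 and 0.47 in GC-1, a change of -3.30 ± 0.67 (adjusted p = 0.0123). Its GC-2 arrays had an SD of 1.30, and the call was lost without GC-1 replicate 1 (-2.78, adjusted p = 0.0899). Fgf23, the phosphate-regulating hormone of bone, had 1.17 and 1.79 in GC-2 and -0.15 and -0.02 in GC-1, a change of 1.57 ± 0.29 (adjusted p = 0.00927) that turned to -0.50 on the E1A scale. The call was also lost without GC-1 replicate 1 (1.51, adjusted p = 0.0605). The Fgf23 probe holds a run of 20 bases of alternating CA or GT, and 166 of 179 probes with such a run of at least 12 bases (92.7%) were well above background on all 4 arrays, against 53.6% of all probes. The part of this repeat in the Fgf23 value was not tested. The klotho genes Kl and Klb were well above background on no array.

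Fgf1, which binds every FGF receptor, had -2.82 and -2.90 in GC-2 and -5.01 and -5.76 in GC-1 with its brightest probe, a change of 2.53 ± 0.32 (adjusted p = 0.00269). On the E1A scale it was 0.46 with an adjusted p of 0.287, and a second Fgf1 probe gave 0.43 ± 0.25 and was not called. Fgf6, a muscle FGF of the FGF4 subfamily, had -1.37 and -0.70 in GC-2 and -2.75 and -2.66 in GC-1, a change of 1.67 ± 0.30 (adjusted p = 0.00841) that turned to -0.40 on the E1A scale. This probe reads a predicted transcript. Its adjusted p was 0.0574 without GC-1 replicate 1, at a change of 1.63, and the other Fgf6 probe was well above background on no array. Fgf2, the basic FGF used to culture spermatogonial stem cells, was not called by its brightest probe (-0.16 ± 0.32, adjusted p = 0.708). Its coding probe printed above gave -4.16 and -3.77 in GC-2 and -5.68 and -6.57 in GC-1, where 1 of 2 arrays was well above background. It was called higher in GC-2 (2.16 ± 0.37, adjusted p = 0.00691), and the difference between the probes was not tested. Fgf8, a ligand of limb and midbrain patterning, was not called (-0.48 ± 0.29, limma adjusted p = 0.228), at -4.14 and -3.61 in GC-2 and -3.55 and -3.23 in GC-1.

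Fgf6 and Fgf23 are neighbours on mouse chromosome 6, their probes 52.6 kb apart in mm9, and changed by a like amount, 1.67 and 1.57. Fgf3, Fgf4 and Fgf15 stand together on chromosome 7 with gaps of 21.2 kb and 35.2 kb, and of these Fgf3 was measured in both lines while Fgf4 and Fgf15 were measured in neither. Pdgfra and Kdr lie 735 kb apart on chromosome 5, and neither was called.

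**Figure D2:**
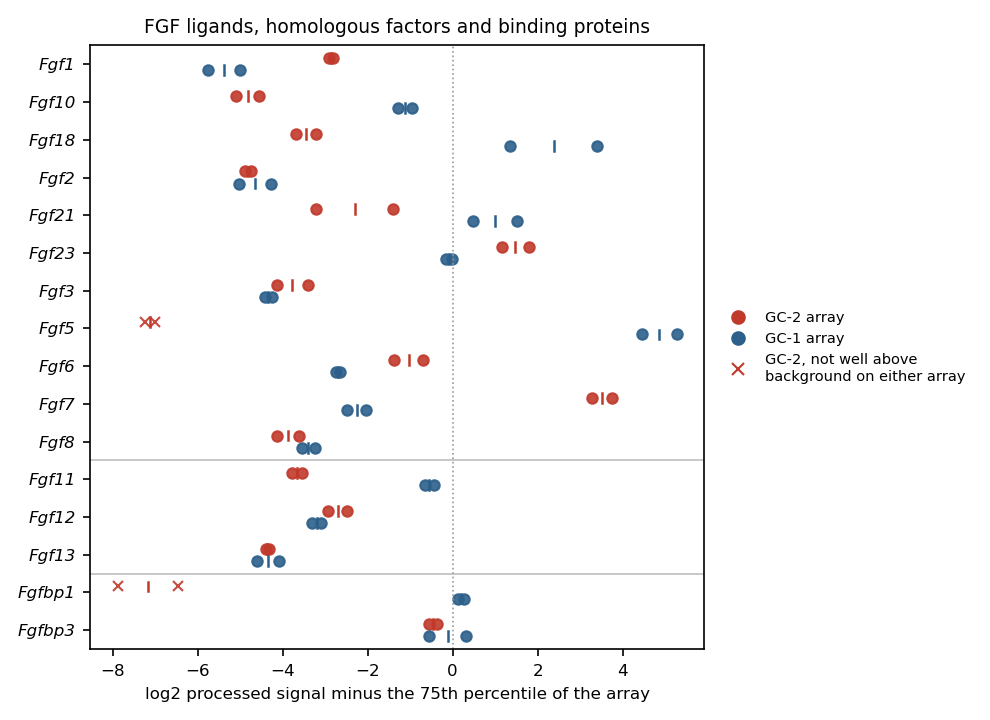
Log2 processed signal minus the 75th percentile of each array for the 16 tested FGF ligands, homologous factors and binding proteins, with GC-2 arrays in red above GC-1 arrays in blue and a tick at the mean of 2 arrays. Fgf7 lies to the right in GC-2, at 3.74 and 3.28, and Fgf5, Fgf18, Fgf10, Fgf21, Fgf11 and Fgfbp1 lie to the left in GC-2. Crosses are values of genes well above background on neither GC-2 array.

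The FGF binding proteins release FGFs from heparan sulphate and carry them to receptors. Fgfbp1 fell below detection in GC-2: it was well above background on neither GC-2 array, at -7.87 and -6.45, and at 0.26 and 0.13 in GC-1 (chr5:44370157-44370216). It was at least 40.2-fold lower in GC-2 by this probe (adjusted p = 0.000411) and at least 44.2-fold lower by the other, whose position overlaps it. Fgfbp3 was not called (-0.35 ± 0.35, adjusted p = 0.45), and its arrays overlapped.

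The homologous factors Fgf11 to Fgf14 stay inside the cell and bind voltage-gated sodium channels instead of FGF receptors. Fgf11 had -3.78 and -3.54 in GC-2 and -0.44 and -0.66 in GC-1 with its brightest probe, a change of -3.11 ± 0.25 (adjusted p = 0.000681). Another probe, with 1 of 2 GC-2 arrays well above background, gave -4.31 and -5.13 in GC-2 and -0.24 and -0.55 in GC-1 and was called lower. The third, across an exon junction, gave 0.21 ± 0.27 and was not called. Fgf13 was not called by its brightest probe (-0.01 ± 0.27), but another probe was well above background on neither GC-2 array and was at least 2.27-fold lower in GC-2 (adjusted p = 0.00157). Fgf12 changed by 0.50 ± 0.27 (adjusted p = 0.179), and by -1.57 on the E1A scale.

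All 5 FGF receptors were measured in both lines, 2 being called higher and 1 lower in GC-2. Fgfr2 had -1.21 and -1.14 in GC-2 and -2.69 and -3.05 in GC-1, a change of 1.69 ± 0.25 (adjusted p = 0.00449), or -0.38 on the E1A scale. The brightest Fgfr3 probe had 0.64 and 0.14 in GC-2 and -0.96 and -1.69 in GC-1, a change of 1.72 ± 0.35 (adjusted p = 0.0122), or -0.35 on the E1A scale. A second Fgfr3 probe went the other way, with -3.85 and -3.29 in GC-2 and -2.24 and -2.04 in GC-1, a change of -1.43 ± 0.29 (adjusted p = 0.0116). Fgfr3 was the only member with probes called in opposite directions, which is 1 of 19 members with several tested probes, beside 658 of 7805 such genes on the array (8.43%). The mean of its probes changed by 0.14 with an adjusted p of 0.632, and the call was lost without GC-1 replicate 2 (1.35, adjusted p = 0.0583).

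Fgfr1, the FGF receptor of most mesenchymal cells, was bright in both lines, with 4.75 and 4.84 in GC-2 and 6.51 and 5.90 in GC-1. Its change was -1.41 ± 0.29 (adjusted p = 0.0128). The probe farthest 3′ by coordinate fell too, by 2.45 ± 0.27 (adjusted p = 0.00175). The kinase probe printed above was not called, at 0.44 ± 0.26 (adjusted p = 0.217). Without GC-1 replicate 1 the call of the brightest Fgfr1 probe was lost (-1.11, adjusted p = 0.0553), as it was for the mean of the 4 probes (-0.66, adjusted p = 0.0976). Fgfr4 was not called (0.24 ± 0.29, adjusted p = 0.534), although 1 of its 3 probes fell by 1.71 ± 0.34 (adjusted p = 0.0114). Fgfrl1, the receptor-like protein without a kinase, changed by -0.49 ± 0.33 (adjusted p = 0.271).

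In the PDGF family, 2 ligands were lower and 1 receptor was higher in GC-2. Pdgfb, the chain that binds both PDGF receptors, lay at -2.68 and -2.73 in GC-2 and at 2.82 and 2.75 in GC-1 (chr15:79826376-79826435). The arrays of each line lay close together, and the change was -5.50 ± 0.23, 45.1-fold lower in GC-2 (adjusted p = 0.00016), or -2.92 in the authors' deposited table. A second Pdgfb probe, well above background on neither GC-2 array, was at least 6.44-fold lower in GC-2. Pdgfc, a chain secreted in latent form, had 1.43 and 1.32 in GC-2 and 3.58 and 3.43 in GC-1, a change of -2.13 ± 0.23 (adjusted p = 0.0017).

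Pdgfrb, the PDGF-B receptor of pericytes and smooth muscle, went the opposite way to Pdgfb. It had 1.54 and 0.57 in GC-2 and -4.32 and -4.68 in GC-1, a change of 5.56 ± 0.38, 47.1-fold higher in GC-2 (adjusted p = 0.000465). On the E1A scale it was 3.49 higher (adjusted p = 1.58e-05). Pdgfra had 3.12 and 2.32 in GC-2 and 1.98 and 1.88 in GC-1. Its change of 0.79 ± 0.33 was not called (limma adjusted p = 0.105), and it was -1.28 on the E1A scale. Without GC-2 replicate 2 it was called higher (1.19). Pdgfa, the PDGF-AA chain, was not called by its brightest probe (-0.05 ± 0.23, adjusted p = 0.877). The second Pdgfa probe gave 1.03 ± 0.24 (adjusted p = 0.018), below the E1A shift of 2.07 and so lower in GC-2 on that scale.

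Of the VEGF ligands, 3 of 5 were higher and 1 lower in GC-2. Pgf, placental growth factor, which binds FLT1 alone among the VEGF kinases, had -0.79 and -1.19 in GC-2 and -5.15 and -5.38 in GC-1 (probe across an exon junction, chr12:86508335-86510337). It was 19.4-fold higher in GC-2 (log2 change 4.28 ± 0.26, adjusted p = 0.000344). Figf, the lymphatic ligand VEGF-D, had 4.01 and 3.41 in GC-2 and 0.33 and 1.45 in GC-1, a change of 2.81 ± 0.44 (adjusted p = 0.00543). The Figf coding probe printed above gave 3.24 ± 0.30 (adjusted p = 0.00107). On the E1A scale the brightest Figf probe was 0.75 higher with an adjusted p of 0.146.

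Vegfc, the other lymphatic ligand, had 1.69 and 2.09 in GC-2 and 0.29 and 0.64 in GC-1, a change of 1.43 ± 0.28 (adjusted p = 0.0104) that turned to -0.64 on the E1A scale. All 3 Vegfc probes were called higher, at 1.43, 1.65 and 2.26, the last being the cystine knot probe printed above and above the E1A shift. The call of the brightest probe was lost without GC-1 replicate 1 (1.25, adjusted p = 0.0618). Vegfb was not called (0.22 ± 0.25, adjusted p = 0.517, and -1.85 on the E1A scale).

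Vegfa, the main angiogenic ligand and a target of hypoxia-inducible factors, differed by probe: of 4 tested, 2 were called, both lower in GC-2, and 2 were not. The brightest probe had 2.52 and 2.59 in GC-2 and 5.33 and 4.54 in GC-1, a change of -2.38 ± 0.33 (adjusted p = 0.00363). The probe in the basic stretch had -3.63 and -2.99 in GC-2 and 0.10 and -0.86 in GC-1, a change of -2.93 ± 0.41 (adjusted p = 0.00389). The probe farthest 3′ by coordinate had 3.51 and 3.42 in GC-2 and 3.79 and 3.96 in GC-1, and was not called (-0.41 ± 0.23, adjusted p = 0.2). The differences between these probes were not tested, and each probe has a response of its own.

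**Figure D3:**
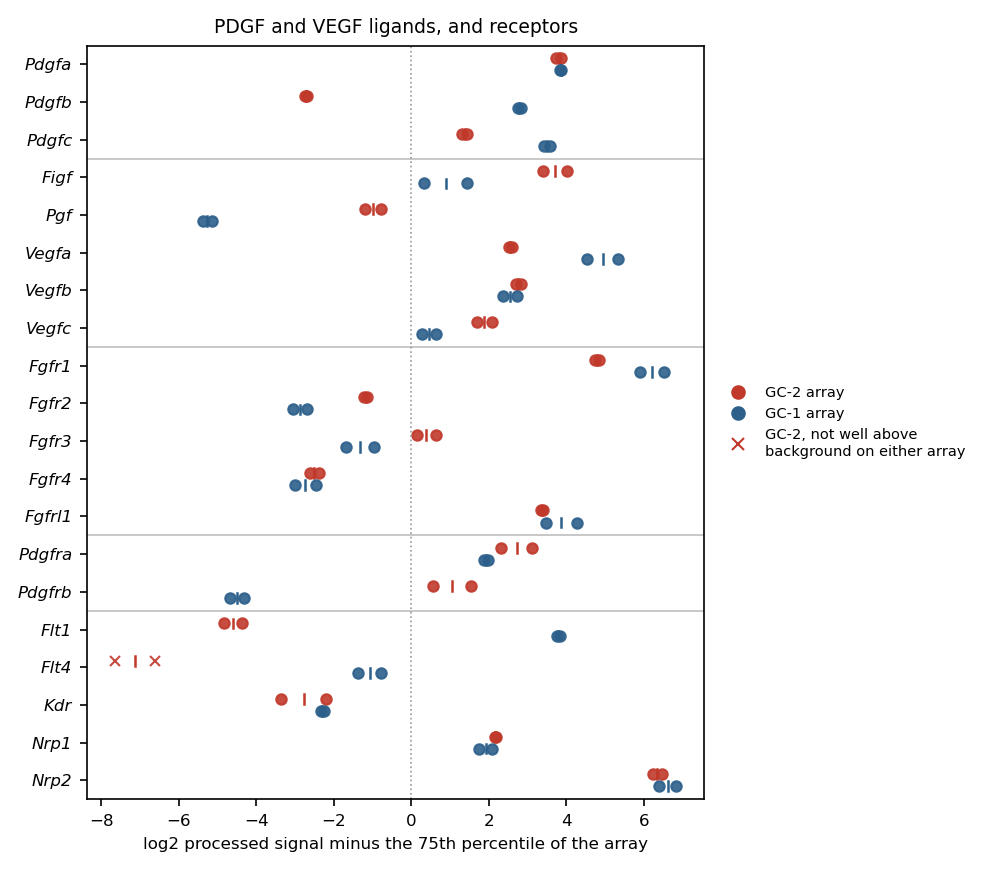
Log2 processed signal minus the 75th percentile of each array for the tested PDGF and VEGF ligands and all 12 receptors, with GC-2 arrays in red above GC-1 arrays in blue and a tick at the mean of 2 arrays. Pdgfrb and Pgf lie to the right in GC-2, while Pdgfb, Flt1 and Flt4 lie to the left. The Flt4 crosses are GC-2 values that were not well above background.

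Among the VEGF receptors, 2 of 5 were lower in GC-2 and 3 were not called. Flt1, a high-affinity VEGF-A and PlGF receptor whose soluble form traps ligand, lay at -4.83 and -4.37 in GC-2 and at 3.75 and 3.83 in GC-1 (chr5:148373791-148373850). The change was -8.39 ± 0.26, 335-fold lower in GC-2 (adjusted p = 0.000118). Both probes of another Flt1 transcript, 75 kb and 76.8 kb upstream of the first along the gene, were called lower in GC-2 too. The nearer had 1 of 2 GC-2 arrays well above background, at -4.80 and -5.09 in GC-2 and 2.06 and 2.75 in GC-1. The farther had none, and was at least 118-fold lower in GC-2. Flt4, the lymphatic receptor of VEGF-C and VEGF-D, was well above background on neither GC-2 array, at -7.64 and -6.60, and lay at -1.38 and -0.77 in GC-1. It was at least 16.7-fold lower in GC-2 (adjusted p = 0.0005). Kdr, the main signalling receptor of VEGF-A, had -2.19 and -3.36 in GC-2 and -2.26 and -2.32 in GC-1, overlapped and was not called (-0.49 ± 0.42, adjusted p = 0.381), although it was called lower without GC-2 replicate 1 (-1.08).

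The neuropilins, co-receptors of VEGFs and semaphorins, were not called by their brightest probes. Nrp1 changed by 0.25 ± 0.24 (adjusted p = 0.437), and the coding probe printed above by 0.18 ± 0.26. The Nrp1 probe farthest 3′ by coordinate gave -0.04 and -0.08 in GC-2 and -4.27 and -3.73 in GC-1, 3.94 ± 0.28 higher in GC-2 (adjusted p = 0.000491). Nrp2 was bright in both lines, at 6.46 and 6.24 in GC-2 and 6.84 and 6.39 in GC-1 (-0.26 ± 0.27, adjusted p = 0.459), by a probe with a 28-base CA or GT run. Another bright Nrp2 probe, without such a run, was at 5.76 and 5.56 in GC-2 and 5.54 and 5.53 in GC-1. It was not called either (0.12 ± 0.23, adjusted p = 0.695). The Nrp2 coding probe printed above gave -0.98 and -0.55 in GC-2 and -3.57 and -3.14 in GC-1, 2.59 ± 0.29 higher in GC-2 (adjusted p = 0.00187). The mean of the Nrp2 probes, which here took in the Npn2 probe outside the rule, was called higher in GC-2, by 1.27 (adjusted p = 0.00957). That change is below the E1A shift, and the mean of the 3 member probes alone was not tested.

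Among the 19 members with several tested probes, 10 had both called and uncalled probes with no opposite calls. The widest span was 4.53 log2 for Fgf11, set by a probe with 1 of 2 GC-2 arrays above background, and the narrowest 0.10 for Fgf3, with a median of 1.95. The span was above 2 in 9 genes and under 1 in 5. Mixed calls and spans were not counted over all genes of the array, so these figures have no comparison. Figf, Flt1, Pdgfb, Fgf10, Fgfbp1 and Vegfc had every tested probe called in 1 direction, while Nrp1 had 1 called probe of 6. Fgf3, Fgf8, Fgf12, Fgfrl1, Pdgfra and Nrp1 were not called, and the arrays of the lines did not overlap at their brightest probes. With 2 arrays per line such separation can arise without a difference, and its share over all genes was not counted.

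**Figure D4:**
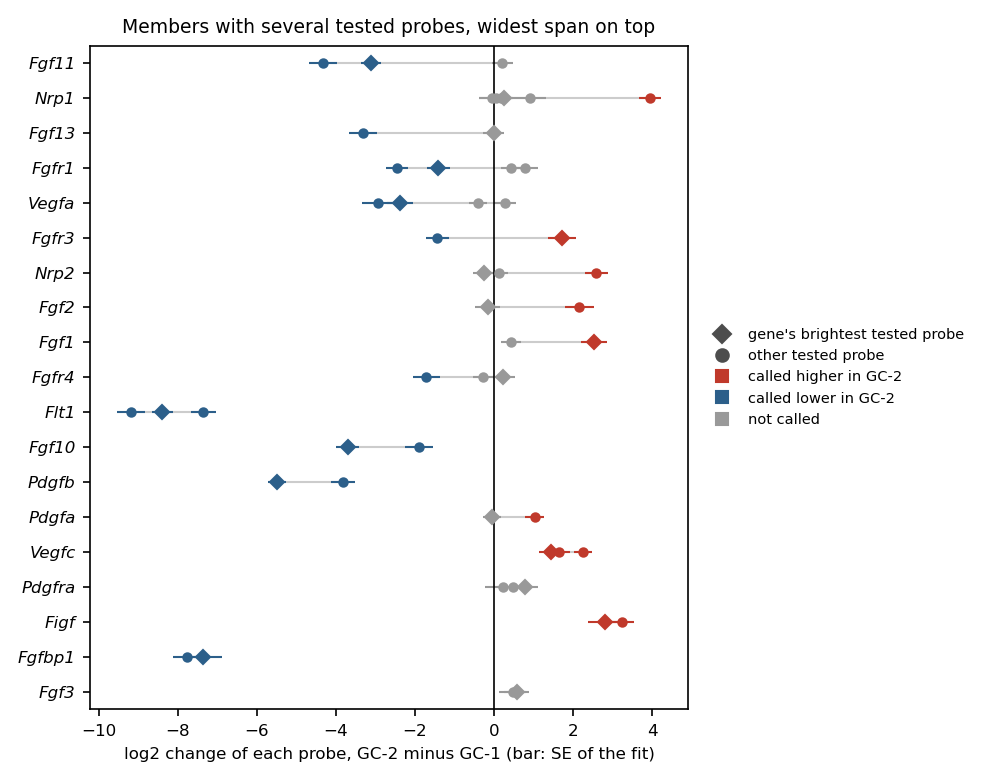
Log2 change (GC-2 minus GC-1, with the SE of the limma fit) of every tested probe of the 19 members with several, ordered from the widest span, Fgf11 at 4.53, to the narrowest, Fgf3 at 0.10. Diamonds are the brightest probe of each gene. Fgfr3 alone has a red (higher) and a blue (lower) probe, and the other mixed genes pair called with uncalled probes.

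Ligands and their receptors are set side by side by pairing. For PDGF-B and its receptor, Pdgfb was -5.50 and Pdgfrb 5.56. For the FLT1 ligands, Pgf was 4.28 and Vegfa -2.38, beside Flt1 at -8.39. For the FLT4 ligands, Vegfc was 1.43 and Figf 2.81, beside Flt4 at -6.04, a fitted value against a GC-2 level below detection. For the ligands of the epithelial FGFR2 form, Fgf7 was 5.77 and Fgf10 -3.70, beside Fgfr2 at 1.69. Over roles, 7 of 19 tested secreted ligands were higher and 7 lower, and 3 of 12 receptors were higher and 3 lower. The called share was 73.7% of these ligands and 50% of the receptors, beside 44.1% of all genes tested. Over all genes, 18.3% were higher and 25.7% lower, so that the receptors lay near the share of the whole array. Counted from the E1A scale instead, Vegfc (-0.64) and Fgfr2 (-0.38) changed sign.

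Genes that carry or answer these signals were taken from lists chosen with earlier results of these data known. Of 18 adaptors and first effectors, all tested, 1 was higher and 6 lower, with a median log2 change of -0.41. Pik3r1, the regulatory subunit of PI3 kinase, was higher by 2.89 ± 0.23. Its catalytic partner Pik3ca was lower, at -4.58 ± 0.23, as were Plcg2 (-3.40 ± 0.29), a phospholipase C, and the adaptor Nck2 (-2.59 ± 0.33). The FGF docking protein Frs2 was not called (-0.36 ± 0.24, adjusted p = 0.262).

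Of 21 feedback and target genes of receptor tyrosine kinase signalling, 3 were higher and 9 lower, with a median of -0.71. Dusp6, the ERK phosphatase induced by FGF signalling, lay at 4.57 and 4.72 in GC-2 and at 6.83 and 6.90 in GC-1, a change of -2.22 ± 0.23 (adjusted p = 0.00149). The membrane antagonist Il17rd was lower too, at -2.85 ± 0.24, a call lost in the mean of its probes. Spry4, a feedback inhibitor, was at least 2.01-fold lower in GC-2, where it was well above background on neither array, a direction that turned with normexp background correction. Against these, Etv1, an ETS factor of FGF signalling, was higher by 4.29 ± 0.26, while the related Etv4 (-0.08 ± 0.28) and Etv5 (0.72 ± 0.35) were not called. Fosl1, a component of AP-1, was higher by 2.73 ± 0.31, and by 0.66 on the E1A scale, where it was not called. The sprouty gene Spry1 was higher by 1.34 ± 0.35 but lower by 0.73 on the E1A scale.

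Of 26 co-receptors and heparan sulphate genes, 23 were tested, 6 being higher and 8 lower, with a median of -0.26. Sulf1, which removes 6-O-sulphate groups from heparan sulphate, fell by 9.36 ± 0.37 (adjusted p = 0.000153), with 1 GC-2 array well above background. Its partner Sulf2 was also lower, at -2.76 ± 0.32. The glypican Gpc4 was higher by 7.84 ± 0.47, with 1 GC-1 array above background, and the syndecan Sdc3 by 4.32 ± 0.33, whereas Gpc2 was at -4.86 ± 0.40. Flrt3, a membrane partner of FGFR1, was at -5.64 ± 0.56.

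Of 18 hypoxia response genes, 3 were higher and 3 lower, with a median of -0.35. Car9, a carbonic anhydrase, was higher by 7.07 ± 0.28 and the peptide hormone gene Adm by 4.97 ± 0.30. Bnip3, a mitophagy gene, was higher by 1.74 ± 0.27, or at -0.33 on the E1A scale. Epas1, which encodes HIF-2α, was lower, at -8.08 ± 0.29, and so was Ndrg1, at -1.66 ± 0.29. Under the E1A scale 16 of the adaptors, 18 of the feedback genes, 18 of the co-receptor genes and 15 of the hypoxia genes were lower, beside 86.9% of all genes tested.

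**Figure D5:**
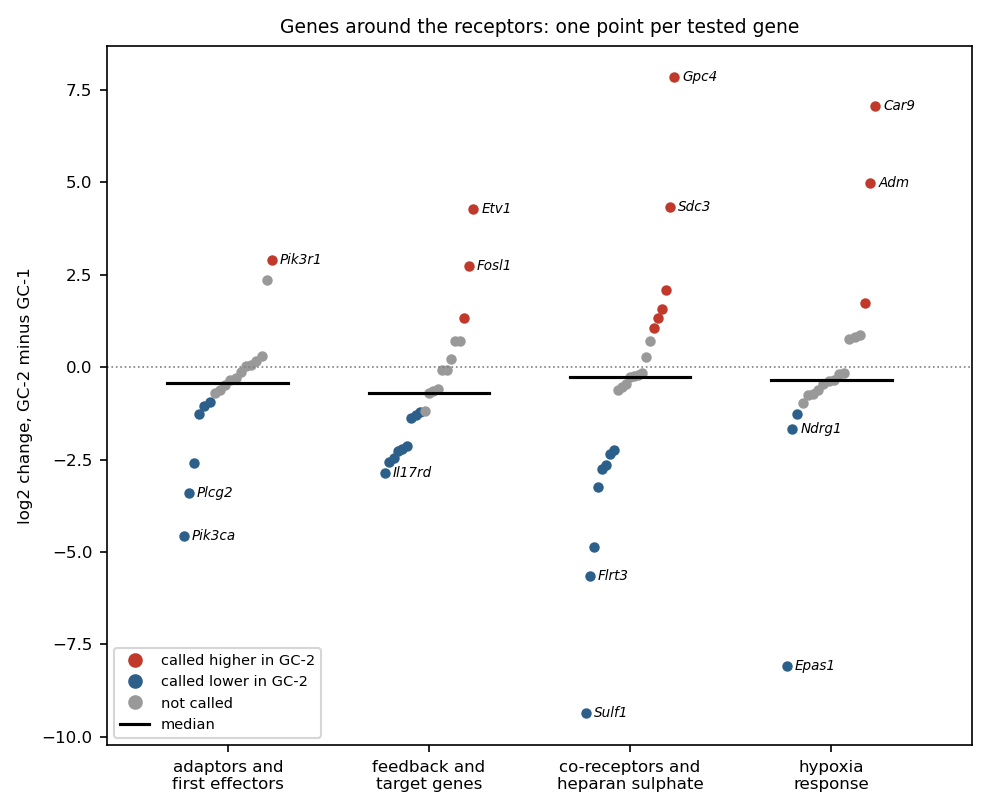
Log2 change (GC-2 minus GC-1) of each tested gene in 4 lists around the receptors, with the median as a black line at -0.41, -0.71, -0.26 and -0.35 from left to right. Named genes are the largest called changes, among them Gpc4 at 7.84, Car9 at 7.07 and Sulf1 at -9.36. On the E1A scale each point would be 2.07 lower.

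Several members are themselves markers of vessel, perivascular or other cell types, so the levels of those types were read beside them. Of 15 endothelial markers, 7 were tested and 4 called, all of them higher, while Cdh5, Tek, Tie1, Emcn, Erg and Sox18 were well above background on no array. Their summed signal, as a multiple of the array's 75th percentile, was 12.9 to 16.8 in GC-2 and 1.52 to 3.17 in GC-1. Eng (signals 3060 and 1190) and Egfl7 (3310 and 778) made up most of the GC-2 sums. Egfl7 (1860 and 755) made up most of the GC-1 sums and was not called (1.68 ± 0.56, limma adjusted p = 0.0572). Of the called ones, Eng, a TGF-β co-receptor, was higher by 5.88 ± 0.35, Plvap by 4.45 ± 0.56 and Sox17 by 1.89 ± 0.30, the last turning to -0.18 on the E1A scale. The fourth, Vwf (2.15 ± 0.52), was 0.08 and uncalled on the E1A scale, changed sign in the mean of its probes, and lost its call with quantile normalization, in the authors' deposited table and without either GC-1 array. Of 13 pericyte and fibroblast markers, 8 were tested, 1 higher and 3 lower, with sums of 174 to 219 in GC-2 and 365 to 442 in GC-1, and Rgs5, Abcc9, Lum and Thy1 on no array. Cspg4, a pericyte marker like Pdgfrb, was higher by 1.79 ± 0.28 but lower by 0.28 on the E1A scale. The 3 lower ones were Dcn (-6.05 ± 0.37), Col1a1 (-1.75 ± 0.31) and Notch3 (-0.89 ± 0.25). The calls of Col1a1 and Notch3 were lost in some other settings.

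Of 15 germ cell markers, 5 were measured in GC-2 and 7 in GC-1, with sums of 4.48 to 4.59 in GC-2 and 10.8 to 23.4 in GC-1. Of 7 tested, 1 was higher and 1 lower, with a median log2 change of 0.19. The higher one was Gfra1, the GDNF receptor of spermatogonial stem cells (4.52 ± 0.35). The lower one was Uchl1 (-2.20 ± 0.41), with signals of 1470 and 640 in GC-2 and 15300 and 7240 in GC-1, which made up most of the GC-1 sums. Dazl, Kit, Mael, Piwil1 and Tex101, which mark germ cells of several stages, were well above background on no array, although the labels give a germ cell line as the cell type of both lines. Of 12 Sertoli cell markers, 2 were higher and 7 lower, with sums of 43.8 to 74 in GC-2 and 728 to 789 in GC-1, and Amh and Cldn11 on no array. Wt1 and Krt18 of this list are also in the next list, so that both sums hold their signal. On the GC-1 arrays Krt18 read 155000 and 189000 and Wt1 90700 and 74600, of Sertoli list signals of 525000 and 504000. Of 12 mesothelial and epithelial markers, 9 were tested and all 9 were lower, among them Krt18 (-11.51 ± 0.24) and Upk1b (-11.13 ± 0.32). Their sums were 4.58 to 5.22 in GC-2 and 1110 to 1250 in GC-1, and Lrrn4 was on no array. This last difference moves with the lower members such as Fgf5, Fgf18, Fgfbp1 and Flt1, and its part in their values was not tested. In bulk RNA, fewer cells of a type and less RNA per cell cannot be told apart.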

How the data were processed

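RNA of GC-2 and GC-1 was measured on 1-colour Agilent mouse arrays (n = 2 each). Per the file headers, Agilent Feature Extraction 11.5.1.1 gave each spot a processed intensity, background-subtracted and detrended by the authors' software with no scaling between arrays, beside raw mean and local background intensities and 0 or 1 flags. The deposited series table holds the authors' log2 values, 1 per gene name, and served as an alternative. Per the labels, nothing is stated on how it combines several probes of a gene.

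From the deposited intensities, irregular spots were left out, the log2 value was taken and the 75th percentile of the array subtracted. Tested probes had both arrays of GC-2, of GC-1 or of both well above background. GC-2 was set against GC-1 in R 4.3.3 by the lmFit and eBayes functions of limma 3.58.1 (two-sided, Benjamini-Hochberg over 36692 probes, threshold 0.05). The step was also run on data simulated with limma's own fitted spread. Such data cannot show the effect of array position or of technical replicates. The brightest tested probe, by its mean over all arrays, stands for a gene. "At least" folds set the GC-1 mean against the detection limit of the GC-2 arrays. Of 97 member probes, 75 were named by RefSeq accession and 22 by symbol (GRCm38 table, names only). Probe positions, on mm9, come from the scanner files, and exons were not annotated here. Some probe sequences, and the results that need them, are not reported here.

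All members are named, and up to 4 called genes per pathway list with the largest changes. A few uncalled genes (Frs2, Etv4, Etv5, Egfl7) and lower-ranked ones (Dusp6, Spry1, Ndrg1, Sulf2, Sdc3, Cspg4) were picked after their values were seen. Members and lists were chosen with earlier results of these data known. Alternatives were the scaling, the background correction, the filter, the summary of probes, the detection rule, the replicate block and each array left out.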

Additional observations from a re-analysis of the deposited data

How the results depend on the processing

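Of 22 called members, 12 kept their call and direction in every setting that could be run among 13, and 15 did so in every setting but the E1A scaling. The member counts in all other settings ran from 7 to 14 higher and from 8 to 13 lower. The E1A scaling gave 3 members higher and 26 lower, and 644 genes higher and 15158 lower in all, with a median change of all genes of -2.20, against -0.13, since it subtracts a constant from each change. It reversed Fgf6 (-0.40), Fgf3 (-1.50), Fgf23 (-0.50), Fgf12 (-1.57), Fgfr2 (-0.38), Fgfr3 (-0.35), Fgfr4 (-1.83), Pdgfra (-1.28), Vegfb (-1.85), Vegfc (-0.64) and Nrp1 (-1.82). Without a filter on background the median change was 0.20, and centring on the median of all probes gave -0.44. That centring reversed Fgfr4 (-0.08), Vegfb (-0.10) and Nrp1 (-0.06), and quantile normalization reversed Fgfr4 (-0.03) and Pdgfa (0.24), all uncalled. Normexp background correction reversed the uncalled Fgf2 (0.81), Fgf8 (0.46), Fgf13 (0.83) and Kdr (0.26), and by its offset reduced called changes, Flt4 to -1.52 and Fgf11 to -1.52 among them. The mean of a gene's probes reversed Fgf2 (1.00), Fgfr4 (-0.58), Pdgfa (0.49) and Nrp2 (1.27), of which Nrp2 was then called, and it called Nrp1 (0.88). The Nrp2 mean took in the Npn2 probe outside the rule. The authors' deposited table reversed Fgf2 (0.84), Fgfr4 (-0.63) and Pdgfa (0.44) and called Nrp1 (1.61). Its value read for Nrp2 (2.58) was that of the old name Npn2, outside the rule, and does not describe the Nrp2 member probes. The deposited table no longer called Fgf10 (-2.19, adjusted p = 0.0703), Fgfr1 (-0.70) and Fgfr3 (0.10). Pdgfb (-2.92), Fgf1 (1.43), Fgf11 (-2.16) and Vegfa (-1.40) were smaller there and still called. The cause of these changes was not tested.

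Leaving out 1 array at a time, where the lone array of a line is assumed to vary like the other line, gave 1941 to 2544 genes higher and 2704 to 3432 lower, with the lowest of both counts without GC-1 replicate 1, and 2084 higher without GC-2 replicate 2. It turned the sign of uncalled members alone, with ranges of -0.54 to 0.22 for Fgf2, -0.04 to 0.51 for Fgfr4, -0.27 to 0.24 for Fgf13, -0.78 to 0.09 for Fgfbp3, -0.11 to 0.01 for Pdgfa and -1.08 to 0.10 for Kdr. With the replicate block 10 members were higher and 12 lower, and no member's call changed. Same-numbered arrays had deviations correlated at 0.12, over too few pairs to show that numbers pair the samples. With a detection limit at the brightest ERCC control probe of each array, 21 members counted as measured in GC-2 and 28 in GC-1, against 32 and 36. Fgf2, Fgf5, Fgf10, Fgfbp1 and Flt4 gave no value with the filter on all 4 arrays, which keeps fewer genes. Slide could not be a block with 1 slide. Signal near background limits, among others, Fgf1, Fgf2, Fgf3, Fgf8, Fgf13, Fgf10, Flt1, Pgf and Pdgfrb in at least 1 line. For Pgf and Pdgfrb that line was GC-1.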
